A study of Homo sapiens with 6 samples.

Results

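The 9 genes described here are among the best known targets of the transcription factor NRF2, and their transcripts were compared between M5 and SW480 cells. SW480 is an established line of human colorectal cancer cells. M5 cells were obtained from it by selection in a living animal and form liver metastases more readily. The labels give no genetic change, drug or time point for either population, and both were grown in the same serum-supplemented medium. They do not say from how many animals or clones M5 was derived. Total RNA of each population was hybridised to 3 Affymetrix U133 Plus 2.0 arrays, which report 1 signal for each set of short probes, and the labels call the 3 arrays biological replicates. The members are NQO1, HMOX1, TXNRD1, SRXN1, GCLC, GCLM, GPX2, AKR1C1 and AKR1B10, taken as every probe set whose only platform gene symbol is one of these. They come to 21 of 54613 probe sets other than controls, of which 16 passed a filter on low signals, and each of the 9 genes kept at least 1 probe set. In RefSeq (GRCh38.p14), TXNRD1 spans chr12:104215779-104350307, GCLC chr6:53497341-53545101 and NQO1 chr16:69709401-69726560, and the other 6 lie on chromosomes 22 (HMOX1), 20 (SRXN1), 1 (GCLM), 14 (GPX2), 10 (AKR1C1) and 7 (AKR1B10).

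NRF2, encoded by NFE2L2, is held in the cytoplasm and sent for degradation by KEAP1, an adaptor of the CUL3 ubiquitin ligase. When KEAP1 is modified by electrophiles or oxidants, NRF2 accumulates, pairs with a small MAF protein in the nucleus and binds antioxidant response elements in the promoters and enhancers of its targets. The targets encode enzymes that reduce quinones and aldehydes, make glutathione and keep thioredoxin and peroxiredoxins reduced, and the gut epithelium, which meets many reactive compounds, uses them heavily.

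Promoter sequence was at hand for 7 of the 9 genes, in 8 windows from 250 bases upstream to 50 bases downstream of the start site (RefSeq, GRCh38.p14), as TXNRD1 has 2 start sites there. The windows were searched on both strands for TGACNNNGC, the core letters of the antioxidant response element, where N is any base. It occurred in 4 of the 8 windows, those of TXNRD1, GCLM and GPX2, and in 13.3% of all 35116 promoter windows. Stretches around 4 of the 5 matches are shown because these are the members whose promoter windows hold the core, TXNRD1 having the smallest p of the 9 genes on the arrays. The fifth match, which begins 8 bases before the upstream TXNRD1 start site and runs onto it, is not printed. All read 5′ to 3′ along the gene, with the 9-base core in capitals. It reads GCNNNGTCA where it lies on the opposite strand. The TXNRD1 stretches are chr12:104286782-104287031 (plus strand), the 250 bases before the downstream start site, and chr12:104215655-104215713 (plus strand), before the upstream one. Those of GCLM and GPX2 are chr1:93909431-93909489 (minus strand) and chr14:64942834-64942892 (minus strand).
TXNRD1, downstream start: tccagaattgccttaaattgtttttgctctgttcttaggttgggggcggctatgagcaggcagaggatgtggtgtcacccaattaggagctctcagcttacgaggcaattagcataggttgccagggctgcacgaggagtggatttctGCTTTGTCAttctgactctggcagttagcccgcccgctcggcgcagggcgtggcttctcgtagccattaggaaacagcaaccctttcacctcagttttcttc
TXNRD1, upstream start: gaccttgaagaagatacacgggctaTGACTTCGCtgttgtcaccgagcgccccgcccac
GCLM: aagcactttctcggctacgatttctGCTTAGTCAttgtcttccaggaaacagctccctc
GPX2: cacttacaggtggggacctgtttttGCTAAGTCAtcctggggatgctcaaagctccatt
A match describes these letters and does not show that NRF2 binds there in either population.

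The arrays differed in overall brightness. The 2% trimmed mean signal was 27.0, 65.3 and 67.1 on M5 replicates 1, 2 and 3, against 20.8, 53.3 and 86.6 on SW480 replicates 1, 2 and 3. Signals were therefore quantile normalised, and all signals below are on that scale unless called deposited. M5 replicate 1 and SW480 replicate 1, the 2 dimmest arrays, are called the dimmer pair. M5 replicates 2 and 3 were much closer to each other (r = 0.994 over 3823 bright probe sets) than any other pair of arrays (0.897 to 0.958). Means and SDs below therefore take their average as a single M5 sample. Most epithelial markers examined were bright in both populations. EPCAM signal was 2240 to 2923 on M5 arrays and 2176 to 2559 on SW480 arrays. KRT18 signal was 4522.5 to 4873 on M5 arrays and 4021.5 to 5185 on SW480 arrays. KRT8, KRT19 and CDH1 were also bright in their brightest probe sets, with overlapping groups. KRT19 had a log2 difference, M5 minus SW480, of 0.75 there (limma adjusted p = 0.403). The epithelial marker VIL1 was dim, with 6.73, 8.78 and 15.6 on M5 arrays and 17.0, 6.17 and 13.3 on SW480 arrays in its brightest probe set. The intestinal factor gene CDX2 reached at most 3.95 on M5 and 13.4 on SW480 arrays in its brighter probe set, and did not pass the filter. ALB, the defining hepatocyte gene, passed it in none of its 4 probe sets, while the hepatocyte gene TTR was 196, 73.1 and 5.68 on M5 arrays against 5.17, 1.67 and 1.43 on SW480 arrays. The hepatocyte gene APOA1 had a log2 difference, M5 minus SW480, of 0.02 in its brightest probe set, with overlapping groups. Its next brightest gave 1.69 without overlap. CYP2E1, also a hepatocyte gene, had 0.89 in its brightest probe set, with overlapping groups. The part of such RNA in the results below was not tested.

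None of the 9 target genes differed between M5 and SW480 past the threshold, an adjusted p of 0.05 in limma over 14243 genes, each gene represented by its brightest probe set. Among all genes 0.112% passed, 9 higher (0.0632%) and 7 lower (0.0491%) in M5. At an unadjusted p under 0.05, 1 member passed, TXNRD1, against 11.7% of all genes. The log2 differences of the members, M5 minus SW480, ran from -0.46 for HMOX1 to 0.69 for AKR1B10, with a median of 0.24 beside -0.01 for all genes, and 7 of the 9 were positive, beside 49.3% of all genes. All 3 M5 arrays lay above all 3 SW480 arrays for TXNRD1 and GCLC, 2 of 9 members. The share of all genes with groups that did not overlap was 16.1%, made up of 7.74% higher and 8.36% lower. Less RNA per cell and fewer cells that express a gene cannot be told apart in such bulk samples.

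**Figure D1:**
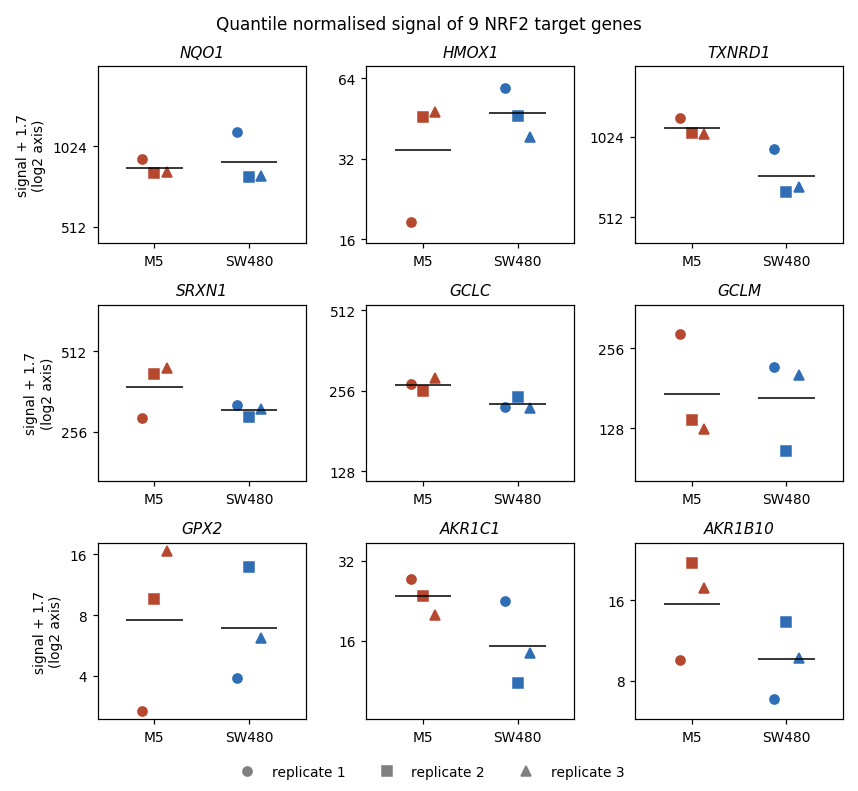
Quantile normalised signal plus 1.7 (log2 axis, a range of its own in each panel) of the 9 target genes, each by its brightest probe set, on the 3 M5 and 3 SW480 arrays. Points are arrays, marked by replicate number, and lines are means of the 3 log values. The M5 points lie above all SW480 points for TXNRD1 and GCLC, and the groups overlap for the other 7 genes.

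NQO1, the quinone reductase that is the textbook readout of NRF2, did not pass the threshold. Its brightest probe set gave 916, 809 and 820 on M5 arrays, against 1150, 781 and 791 on SW480 arrays. All but SW480 replicate 1 lay close together, and the groups overlapped. The log2 difference was -0.07, with a 95% interval of -0.49 to 0.34 in limma and an adjusted p of 0.909. That interval leaves room for a difference of less than 2-fold only, although it counts M5 replicates 2 and 3 as separate samples. The other 2 NQO1 probe sets had log2 differences of -0.08 and 0.03, so all 3 sets were near 0. With the arrays taken apart by brightness they gave -0.33, 0.36 and -0.46 on the dimmer pair and 0.05, -0.30 and 0.28 on the 4 brighter arrays. In neither group of arrays did all 3 sets share a sign.

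HMOX1 encodes heme oxygenase, which opens the heme ring to biliverdin and releases iron, and it also answers to factors other than NRF2. Its 1 probe set gave 16.9, 44.3 and 46.05 on M5 arrays and 57.2, 44.7 and 37.0 on SW480 arrays. M5 replicate 1 stood alone at the bottom, and the other 5 arrays overlapped. HMOX1 had a log2 difference of -0.46 (SE 0.41, limma adjusted p = 0.711). It was -1.66 on the dimmer pair and 0.15 on the 4 brighter arrays, so the sign came from the dimmer pair.

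TXNRD1, the cytosolic thioredoxin reductase that passes electrons from NADPH to thioredoxin, had the smallest p of the 9. Its signal was 1203.5, 1055 and 1046 on M5 arrays, against 923, 634 and 660 on SW480 arrays. The lowest M5 array was above the highest SW480 array, and in both populations replicate 1 was the highest. Means were 1127 ± 108 (SD, n = 2) in M5 and 739 ± 160 (SD, n = 3) in SW480. The log2 difference was 0.59 (95% interval 0.19 to 0.9998). Its limma p-value across all genes was 0.00838 before adjustment, and the adjusted p was 0.303. The difference was 0.38 on the dimmer pair and 0.70 on the 4 brighter arrays, and it was 0.65 among arrays with a strong 18S ribosomal control and 0.67 among those with a weak one. In the deposited signals, before scaling, TXNRD1 read 569, 1378 and 1421 on M5 arrays and 330, 603 and 1067 on SW480 arrays, and there the groups overlapped. With the dimmer pair left out, limma called TXNRD1 higher in M5 (adjusted p = 0.0118), the only member among the 9, where 11.5% of all genes were called, 5.12% higher and 6.35% lower. Once M5 replicates 2 and 3 were also merged into a single sample, its adjusted p was 0.214. A second TXNRD1 probe set had signals of at most 3.80, below the filter, and adds no measurement.

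SRXN1 encodes sulfiredoxin, which repairs over-oxidised peroxiredoxins. The signals of its 1 probe set were 286, 419 and 441 on M5 arrays, against 320, 289 and 309 on SW480 arrays. The 2 brighter M5 arrays were above every SW480 array, and M5 replicate 1 was below them. SRXN1 had a log2 difference of 0.29 (95% interval -0.17 to 0.76, limma adjusted p = 0.629), made up of -0.16 on the dimmer pair and 0.52 on the other 4 arrays. With the dimmer pair left out, SRXN1 had an adjusted p of 0.0560 in limma.

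The subunits of glutamate-cysteine ligase, which makes the first bond of glutathione, are encoded by GCLC (catalytic) and GCLM (modifier). GCLC signals were 269, 253 and 284 on M5 arrays and 222, 240 and 220 on SW480 arrays. The groups did not overlap, although the gap between the nearest arrays was small. GCLC had a log2 difference of 0.24 (95% interval -0.18 to 0.65, limma adjusted p = 0.661), with 0.28 on the dimmer pair and 0.22 on the brighter arrays, the most even of the 9 genes. Its other kept probe set gave 182, 167 and 164 on M5 arrays and 106, 165 and 138 on SW480 arrays, with a difference of 0.35. There the groups overlapped.

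GCLM signals scattered more. They were 286, 136 and 126 on M5 arrays, against 216, 103 and 200 on SW480 arrays. High and low arrays occurred in both populations, and the difference was 0.04 (95% interval -0.76 to 0.85, limma adjusted p = 0.975). On the arrays with a strong 18S control (M5 replicate 1, SW480 replicates 1 and 2) the GCLM difference was 0.93, and on those with a weak one (M5 replicates 2 and 3, SW480 replicate 3) it was -0.61. The other 2 GCLM probe sets turned the same way, with 0.80 and 0.60 in the first set of arrays and -1.33 and -0.64 in the second. No call on GCLM can be drawn from these arrays in either direction, and the part of the 18S split in its values was not tested.

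GPX2 encodes the glutathione peroxidase of the gut epithelium, where it reduces hydroperoxides. Its brighter probe set read 0.967, 7.92 and 15.0 on M5 arrays and 2.18, 12.2 and 4.47 on SW480 arrays. These signals lay around 5.40, the level below which the filter removed probe sets by their mean log value, and the second GPX2 probe set fell below it. The log2 difference was 0.12 with an interval of -1.75 to 1.99, too wide to say whether GPX2 differs. As the table holds no detection calls, whether GPX2 was above background is unknown.

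AKR1C1 and AKR1B10 encode aldo-keto reductases, which turn reactive aldehydes and ketones, and in the case of AKR1C1 also steroids, into alcohols. AKR1B10 had the largest log2 difference of the members, 0.69, with an interval of -0.51 to 1.89 (limma adjusted p = 0.662). Its signals were 7.90, 20.3 and 16.05 on M5 arrays and 5.17, 11.6 and 8.07 on SW480 arrays. M5 replicate 1 lay among the SW480 arrays. The brightest AKR1C1 probe set read 25.55, 22.0 and 18.4 on M5 arrays and 20.8, 9.45 and 12.7 on SW480 arrays, a difference of 0.61 (95% interval -0.33 to 1.55, limma adjusted p = 0.614). Only SW480 replicate 1 overlapped the M5 arrays. The maker's suffix marks this set and the next brightest as shared between similar sequences, and AKR1C1 is nearly identical to AKR1C2, so which gene was read is uncertain. The 5 AKR1C1 probe sets did not move as one: with no filter their differences ran from -0.66 to 1.30, and 2 of them failed the filter. One further set carries the symbols of both AKR1C1 and AKR1C2 and was not used.

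**Figure D2:**
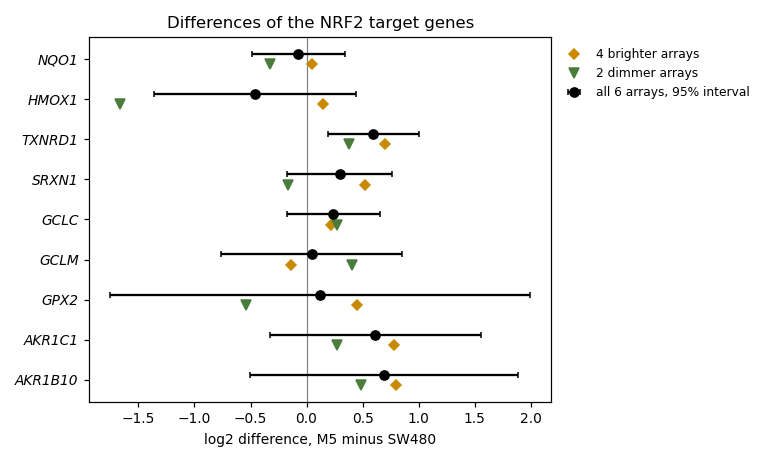
Log2 difference, M5 minus SW480, of the 9 target genes. Black points with bars are the fit over 6 arrays with its 95% interval, diamonds the difference on the 4 brighter arrays and triangles that on the 2 dimmer arrays (same probe set). Only the interval of TXNRD1 lies clear of 0, before adjustment for all genes; HMOX1 lies at -1.66 on the dimmer arrays and 0.15 on the brighter ones.

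For 5 of the 9 members the 95% interval lay within -1 and 1, so that a 2-fold difference was outside it: NQO1, TXNRD1, SRXN1, GCLC and GCLM. All these intervals count M5 replicates 2 and 3 as separate samples. That of TXNRD1 reached 0.9998, so a 2-fold difference is not firmly excluded there. GCLM had opposite signs on the arrays with strong and weak 18S control, and no call on it can be drawn. The same held for 40.4% of all genes. The intervals of HMOX1, GPX2, AKR1C1 and AKR1B10 crossed -1 or 1. Signals of these 4 genes were at most 57.2 on any array.

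By the rule fixed for likeness, AKR1B10, as the member with the largest log2 difference, was compared in profile with other genes. These were the genes among the 14243 tested that were on no list here (members, pathway genes and cell type markers). The measure was the root mean square difference of centred log2 values over the 6 arrays. The nearest were PTBP2 (0.0987), the antisense transcript ASH1L-AS1 (0.123) and RHBDD1 (0.139). Whether a listed gene lay closer was not examined. Their log2 differences between M5 and SW480 were 0.58, 0.57 and 0.56, and each was lowest on replicate 1 within both populations, as AKR1B10 was.

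Of 78 further genes of the pathway, 71 had a probe set with that symbol alone and 68 were tested. None passed the threshold, against 0.112% of all genes. At an unadjusted p under 0.05 in limma, 11 of the 68 passed, against 11.7% of all genes. The median log2 difference was -0.02, with 33 genes positive and 35 negative. In 5 genes every M5 array was above every SW480 array, and in 7 every one was below, while 7.74% and 8.36% of all genes did so. AKR1B1 is not analysed here.

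Among the regulators, NFE2L2, the gene of NRF2 itself, had signals of 580, 570 and 533 on M5 arrays and 764, 728 and 750 on SW480 arrays. The groups were well apart and each was tight. The log2 difference was -0.41 (95% interval -0.76 to -0.07), with a limma p of 0.0231 before adjustment and 0.370 after it. It was -0.40 on the dimmer pair and -0.42 on the other arrays, and its second kept probe set, far dimmer, gave 0.20 with overlapping groups. KEAP1, its repressor, had a difference of -0.21 (SE 0.22) and BACH1, which competes with NRF2 for the same elements, 0.04 (SE 0.29), with limma adjusted p of 0.763 and 0.969. NFE2L2 transcript thus stood on the other side of 0 from TXNRD1 and 6 other members, and NRF2 protein, which is set largely by degradation, was not measured.

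**Figure D3:**
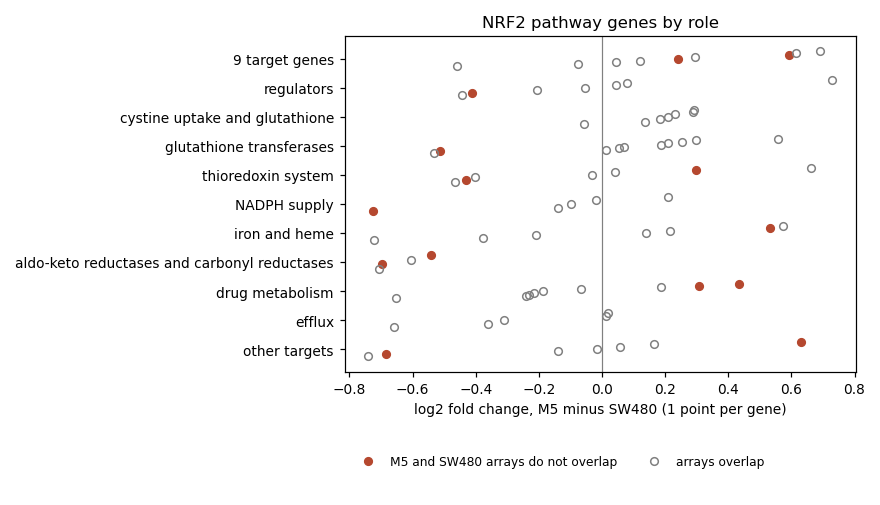
Log2 fold change, M5 minus SW480, of the 9 target genes and of 68 further pathway genes in rows by role, 1 point per gene. Filled points are genes whose M5 and SW480 arrays do not overlap. No row stands to one side of 0 but that of the 4 aldo-keto and carbonyl reductases, and no gene passed the threshold.

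In the thioredoxin system, TXN, the substrate of TXNRD1, read 3642, 3945 and 3806 on M5 arrays and 2898, 2965 and 3414 on SW480 arrays. All M5 arrays were higher, with a log2 difference of 0.30 (SE 0.13, limma adjusted p = 0.405). The other kept TXN probe set, far dimmer, had -0.04 with overlapping groups, and the mean of both sets gave 0.13 (limma adjusted p = 0.817). PRDX2, a peroxiredoxin that thioredoxin reduces, read 1588, 1335 and 1276 on M5 arrays and 1603, 2207 and 1875 on SW480 arrays. Its groups did not overlap, but the dimmer pair differed by only -0.01. The PRDX2 difference was -0.43 (SE 0.17, limma adjusted p = 0.376), and 2 of its 3 dimmer probe sets had positive differences.

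SLC7A11, the cystine carrier that feeds glutathione synthesis, read 97.5, 144 and 151 on M5 arrays and 147, 82.9 and 94.3 on SW480 arrays. The groups overlapped through SW480 replicate 1. SLC7A11 had a log2 difference of 0.29 (SE 0.29, limma adjusted p = 0.742), with -0.59 on the dimmer pair and 0.73 on the others. GSR, which regenerates reduced glutathione, also had 0.29 (SE 0.28, limma adjusted p = 0.731), with overlapping groups. A second, dimmer probe set of each gene had groups that did not overlap, with log2 differences of 0.59 for SLC7A11 and 0.56 for GSR. MGST1, a membrane-bound glutathione transferase, read 863, 1167 and 1065 on M5 arrays and 1278, 1621 and 1507 on SW480 arrays, with no overlap. Its difference was -0.51 (95% interval -0.89 to -0.14, limma adjusted p = 0.329), and -0.56 and -0.49 on the dimmer pair and the other arrays. This probe set is also marked as shared between similar sequences, as is the next brightest MGST1 set, which gave -0.47 without overlap. Another bright MGST1 set read 446, 715 and 704 on M5 arrays and 492, 888 and 749 on SW480 arrays. Its groups overlapped, with a difference of -0.18. A dim kept set gave -2.02 without overlap.

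Of 5 tested genes that supply NADPH, 4 had negative differences, beside 7227 of all 14243 genes. Those of TKT, ME1 and PGD were small, at -0.02, -0.10 and -0.14, and IDH1 had the lowest. IDH1, which makes NADPH from isocitrate, read 505, 409 and 396 on M5 arrays and 522, 937 and 760 on SW480 arrays. CAT, the gene of the peroxide-removing enzyme catalase, read 440, 382 and 380 on M5 arrays and 476, 697 and 801 on SW480 arrays. In both genes the groups did not overlap in this brightest probe set, and replicate 1 of SW480 was close to the M5 arrays. The next brightest sets had overlapping groups, with log2 differences of -0.44 for IDH1 and -0.52 for CAT. On the dimmer pair these next sets gave -0.06 for IDH1 and -0.46 for CAT, and on the 4 brighter arrays -0.63 and -0.55. The log2 differences of the brightest sets were -0.73 for IDH1 (SE 0.23) and -0.68 for CAT (SE 0.22), each with a limma adjusted p of 0.308. On the dimmer pair they were -0.05 and -0.11, against -1.07 and -0.97 on the 4 brighter arrays. Without the dimmer pair both were called lower in M5, with adjusted p of 0.0353 for IDH1 and 0.00542 for CAT in limma; IDH1 was then read by its other bright probe set, with a difference of -0.63. In that fit 6.35% of all genes were called lower. Once M5 replicates 2 and 3 were also merged, neither was called, with limma adjusted p of 0.296 for IDH1 and 0.0665 for CAT.

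In heme and iron handling, BLVRB, a biliverdin reductase, read 451, 618 and 623 on M5 arrays and 449, 341 and 372 on SW480 arrays. The dimmer pair was level, with a difference of 0.01, and the 4 brighter arrays differed by 0.80. Over 6 arrays the value was 0.53 (SE 0.20, limma adjusted p = 0.370). FTL, the ferritin light chain that stores iron, had 0.21 (SE 0.14, limma adjusted p = 0.591). HMOX1 and BLVRB had opposite signs over 6 arrays, HMOX1 without a gap between its groups. The biliverdin reductase gene BLVRA had 0.14 in its brightest probe set (SE 0.31, limma adjusted p = 0.896), with overlapping groups. Its dimmer kept sets had both signs.

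All 4 other aldo-keto and carbonyl reductases tested, AKR7A2, AKR1C2, AKR1C3 and CBR3, had negative differences, of -0.54 to -0.71, and the members AKR1C1 and AKR1B10 positive ones. Negative differences were found in 7227 of all 14243 genes. The sign of CBR3 came from M5 replicate 1, with signals of 3.45, 27.5 and 22.4 on M5 arrays and 20.8, 24.8 and 19.7 on SW480 arrays. On the 4 brighter arrays CBR3 differed by 0.16. AKR1C2, with a shared probe set of 9.07, 15.2 and 13.3 on M5 arrays and 28.0, 16.5 and 19.9 on SW480 arrays, had -0.70 (95% interval -1.64 to 0.24, limma adjusted p = 0.562). AKR7A2, an aldehyde reductase, was better measured, with 283, 263 and 285 on M5 arrays and 432, 454 and 334 on SW480 arrays. Its difference was -0.54 (SE 0.19, limma adjusted p = 0.349), and the groups did not overlap. The other AKR7A2 probe set, nearly as bright, gave -0.35 with overlapping groups. AKR1C3, a reductase of steroids and prostaglandins, had -0.71 with an SE of 0.60 (limma adjusted p = 0.697), and 0.30 on the dimmer pair. The difference between the AKR1C1 and AKR1C2 values was not tested.

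Of the remaining genes with groups that did not overlap, NQO2, a relative of NQO1, had 0.43 (SE 0.18), SESN2, a stress-induced sestrin gene, 0.63 (SE 0.32), and the cytochrome gene CYP2S1 0.31 (SE 0.34). A second SESN2 probe set had 0.17 with overlapping groups. The limma adjusted p of these 3 genes lay between 0.395 and 0.777. NQO2 read 420, 482 and 461 on M5 arrays and 343, 365 and 301 on SW480 arrays, where NQO1 had overlapping groups.

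**Figure D4:**
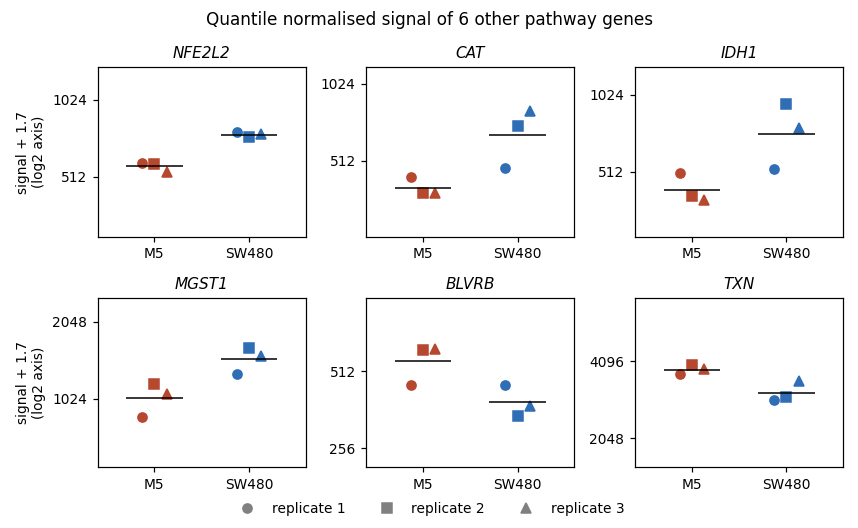
Quantile normalised signal plus 1.7 (log2 axis) of NFE2L2, CAT, IDH1, MGST1, BLVRB and TXN on the 3 M5 and 3 SW480 arrays, drawn as for the 9 target genes. M5 points lie below SW480 points for NFE2L2, CAT, IDH1 and MGST1 and above them for BLVRB and TXN; replicate 1 of both populations is nearly level for CAT, IDH1 and BLVRB.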

How the data were processed

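The deposited probe set intensities, linear in scale, were produced by the authors with GCOS 1.4, the array maker's software, per the submitters' processing notes. The sources used here do not give the software's settings, a scaling target or the build, and no detection calls were used. The 54675 probe sets were named from a platform annotation of 2016. After the 62 control probe sets were left out, arrays were quantile normalised and tested as log2(signal + 1.7), where 1.7 is the 20th percentile of the deposited table. This pseudocount makes fold changes of dim genes too small. Probe sets in the lowest 40% by mean log value were dropped, and a gene was its brightest remaining probe set with 1 symbol. M5 was compared with SW480 in limma 3.58.1 (R 4.3.3; lmFit, eBayes with an intensity trend, two-sided, Benjamini-Hochberg over genes, threshold 0.05) on all 6 arrays. All 166 probe sets of the members and pathway lists matched a RefSeq gene ID, and 0 symbols changed.

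The number of arrays limits the precision, and p-values measure only the spread between these arrays. The labels do not say whether the replicates were separate cultures. On simulated signals for 14278 genes, the fit called 15.9% of 2-fold, 45.9% of 4-fold and 73.3% of 8-fold changes. The simulated arrays varied independently, unlike M5 replicates 2 and 3, so these shares need not hold for the real arrays. Alternatives changed the scaling, pseudocount, filter, variance model, probe sets, blocks and arrays. The members, lists and alternatives were chosen with earlier results of these data known. The genes named were all members, pathway genes whose groups do not overlap (up to 8 in each direction), and preset ones (NFE2L2, KEAP1, BACH1, SLC7A11, GSR, TXN, FTL, AKR1C2, AKR1C3, AKR1B1); 1 other preset item is not reported here. The 3 genes outside the lists closest in profile to the member with the largest log2 difference were added. Promoter sequences are RefSeq's (GRCh38.p14). Figures were drawn with matplotlib 3.10.9.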

Additional observations from a re-analysis of the deposited data

How the results depend on the processing

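Over 22 alternatives the 9 target genes gave 193 values, of which 179 kept the sign of the 6-array fit and 14 did not. Counts were 0 target genes higher and 0 lower, and 0 pathway genes in each direction. Leaving out the dimmer pair gave 1 target gene higher (TXNRD1) and 3 pathway genes higher and 6 lower. Array weights gave 1 target gene higher (TXNRD1 again), with 2 pathway genes higher and 6 lower. The dimmer pair left out with M5 replicates 2 and 3 averaged, chosen after the data were seen, gave 1 pathway gene higher. Leaving out 1 array in turn gave 0 target genes in either direction and 0 to 1 pathway genes higher and 0 to 1 lower (CAT without SW480 replicate 1, MAFF without M5 replicate 1). Across all genes, 9 were higher and 7 lower over 6 arrays, 725 and 899 without the dimmer pair, and 644 and 830 with array weights. Without the intensity trend the counts were 0 and 0 (692 and 729 at an unadjusted p under 0.05 in limma). Merging M5 replicates 2 and 3 gave 1 and 3, the dimmer-pair block 31 and 18, no scaling 6 and 3, median centring 15 and 11, and the larger pseudocount 13 and 12. Without SW480 replicates 1, 2 and 3 the counts were 104 and 56, 3 and 4, and 3 and 2; without M5 replicates 1, 2 and 3 they were 94 and 142, 0 and 2, and 3 and 3.

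Signs that turned, as log2 values, were 0.12 for NQO1 with no scaling and 0.0025 with median centring, which gave -0.057 for GCLM and -0.074 for BACH1. Averaging M5 replicates 2 and 3 gave -0.25 for GPX2 and -0.078 for BACH1. Leaving out the dimmer pair, alone or with that averaging, gave 0.15 for HMOX1 and -0.14 for GCLM. The 18S block gave -0.21 for GPX2 and -0.092 for BACH1, array weights -0.17 for GCLM, and the mean of kept probe sets 0.033 for PRDX2. Leaving out 1 array in turn gave -0.33 to 0.25 for GCLM, -0.31 to 0.89 for GPX2, -0.17 to 0.11 for NQO1 and -0.11 to 0.29 for BACH1. The cause was not tested. TXNRD1 lay between 0.50 and 0.80 throughout, past the threshold in 2 alternatives. The replicate numbers gave no clear pairing across all 3 numbers. Arrays of equal number deviated from their group means with r of 0.11, 0.016 and 0.071 (numbers 1, 2 and 3). Over the bright probe sets, M5 replicate 1 and SW480 replicate 1 did correlate best with each other (r = 0.955). With arrays of its own population SW480 replicate 1 had 0.911, and M5 replicate 1 had 0.933 and 0.935. Arrays numbered 2 and 3 did not correlate best with their own number. With the replicate block 0 target genes were called, and TXNRD1 had 0.59 with a limma adjusted p of 0.230. GPX2 was not tested in 4 alternatives, and AKR1B10 not in 1, as their probe sets fell below the filter. Signal over background is unknown without detection calls, so the dim genes GPX2, AKR1C1 and AKR1B10 set no firm fold.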

Other observations

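On the 4 brighter arrays, other genes of the pathway were called that the 6-array fit did not call; they were named after their values were seen. MAFF, which encodes a small MAF partner of NRF2, read 623 and 646 on M5 replicates 2 and 3, against 231 and 319 on SW480 replicates 2 and 3. On the dimmer pair it read 253 on M5 and 302 on SW480. Its log2 difference was 0.73 over 6 arrays (limma adjusted p = 0.429) and 1.23 without the dimmer pair (limma adjusted p = 0.00549). Both MAFF probe sets differed in sign between the dimmer pair (-0.25 and -0.37) and the other arrays (1.22 and 1.07).

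UGDH, which makes the sugar donor for glucuronidation, read 193, 104 and 124 on M5 arrays and 173, 278 and 203 on SW480 arrays, a difference of -0.65 over 6 arrays and -1.07 without the dimmer pair (limma adjusted p = 0.411 and 0.0165). PRDX6, a peroxiredoxin that uses glutathione, had -0.40 and -0.76 (limma adjusted p = 0.562 and 0.0226), with a positive difference of 0.33 on the dimmer pair. Its other probe set, nearly as bright, gave -0.07 over 6 arrays and -0.12 on the 4 brighter ones. Without the dimmer pair, limma also called BLVRB (0.80, adjusted p = 0.0112) and SLC7A11 (0.74, adjusted p = 0.0422) higher in M5. It called MGST1 (-0.48, adjusted p = 0.0423) and PRDX2 (-0.63, adjusted p = 0.0182) lower, beside IDH1 and CAT. With M5 replicates 2 and 3 merged as well, MAFF was the only pathway gene still called. The background without the dimmer pair was 11.5% of all genes called, beside 9 of the 68 pathway genes. Those fits share arrays with the 6-array fit and rest on 2 M5 arrays that were closer to each other than any other pair.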
